A study of Xenopus laevis with 9 samples.

Results

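The late filtrate of *Xenopus laevis* egg extract, called T2, was compared with the unfiltered extract, called input, to find which RNAs still differed from the extract after passage through membranes with 30 nm pores and which were close to its level. The comparison took the 3 T2 libraries and the 3 input libraries of a series of 9, and all genes with enough reads: 19902 of the 44478 genes in the count table. T2 filtrates were egg cytoplasm spun through the membrane at high pressure and taken at the late time point, and input was the same kind of extract taken before the spin. Both groups shared the extract's preparation, in which eggs were crushed in the presence of cytochalasin D and protease inhibitors and the cytoplasm was supplemented with nocodazole, an agent that depolymerizes microtubules, and with sucrose. The study's methods give 3 biologically independent samples and 9 independent experiments, with a biological triplicate of each. The remaining 3 libraries are early filtrates taken at low pressure, T1, and they entered neither the main fit nor its p-values.

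An egg of *X. laevis* is transcriptionally silent and carries a large store of maternal messenger RNA that is held in the cytoplasm with RNA-binding proteins until it is translated or degraded. Long RNAs and their proteins form ribonucleoprotein particles and larger condensates, and messenger RNAs can also be bound to ribosomes, membranes or the cytoskeleton, so that a pore can hold back one RNA and let another pass. *X. laevis* is allotetraploid, and most genes have a copy on an L and on an S chromosome, which the suffix of the symbol gives.

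The libraries were deep, and the filtrates varied more than the extract. Between 60330615 and 93451602 reads fell on genes in the T2 filtrates (median 85388303), against between 65503682 and 90000652 in the input (median 70606051). Levels are given as CPM, the usual counts of reads scaled to library size, here with TMM factors. They are relative: how much RNA a filtrate held was not measured by these counts, so a fall of one RNA and a rise of the others cannot be told apart. Pearson correlations of log2(CPM + 1) over genes lay between 0.84 and 0.89 among T2 filtrates, at 0.951, 0.952 and 0.95 among input libraries, and between 0.85 and 0.93 across the conditions. The common biological coefficient of variation, edgeR's measure of the spread between replicates, was 1.07 in T2 filtrates and 0.556 in the input. At least 1 read was seen on between 19308 and 20331 genes at T2, against between 22149 and 22565 in the input. The intervals of fold changes given below come from the edgeR fit and include the spread between these replicates as well as counting error.

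Most RNAs of the late filtrate could not be told from the extract, and few could be told to differ. At an adjusted p-value under 0.05 by edgeR's quasi-likelihood test with Benjamini-Hochberg adjustment, 192 of 19902 genes (0.965%) differed, of which 67 (0.337%) were higher and 125 (0.628%) were lower at T2. Without adjustment 1827 genes (9.18%) were higher and 1841 (9.25%) were lower at p under 0.05. The T2 and input libraries did not overlap for any of the 192 genes, whereas 27.1% of all tested genes had libraries that did not overlap. Outside a block of identifiers described below, the differences were moderate. The log2 fold changes of the 67 higher genes lay between 0.94 and 3.03 (median 1.41), and those of the other 113 lower genes lay between -2.78 and -0.89 (median -1.35).

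The second question was which RNAs were close to the extract, since a p-value over the threshold does not answer it. A gene was counted as within 2-fold of the input when the whole 95% interval of its fold change lay between -1 and 1 on the log2 scale. This held for 4011 genes (20.2%), none of which was among the 192. The remaining 15699 genes (78.9%) were undetermined: they passed neither rule. The median log2 fold change over all tested genes was 0.09, with quartiles of -0.44 and 0.66.

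The count of 192 rested on the choice of libraries in the fit. The fit to the 6 compared libraries was chosen with earlier results known, including that a fit to all 9 libraries called 0 genes. That fit to 9 libraries had 1570 genes with an unadjusted p under 0.05 and 1240 within 2-fold, while DESeq2's Wald test on the 6 libraries gave 1830 genes. Leaving out input replicate 1, 2 or 3 left 11, 11 and 12 genes, leaving out T2 replicate 2 left 17, and leaving out T2 replicate 1 or 3 left 134 and 203. In each of these 6 reduced fits all 192 genes kept the sign of their change, with unadjusted edgeR p under 0.05. These genes were picked from the same libraries and did not overlap between the conditions. Leaving out 1 library therefore could not turn their sign, and its keeping is no check of the calls. The balance between the directions moved with the scaling: with library size only, 123 genes were higher and 114 lower. Within 2-fold were between 2672 and 4756 genes when 1 library was left out.

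**Figure D1:**
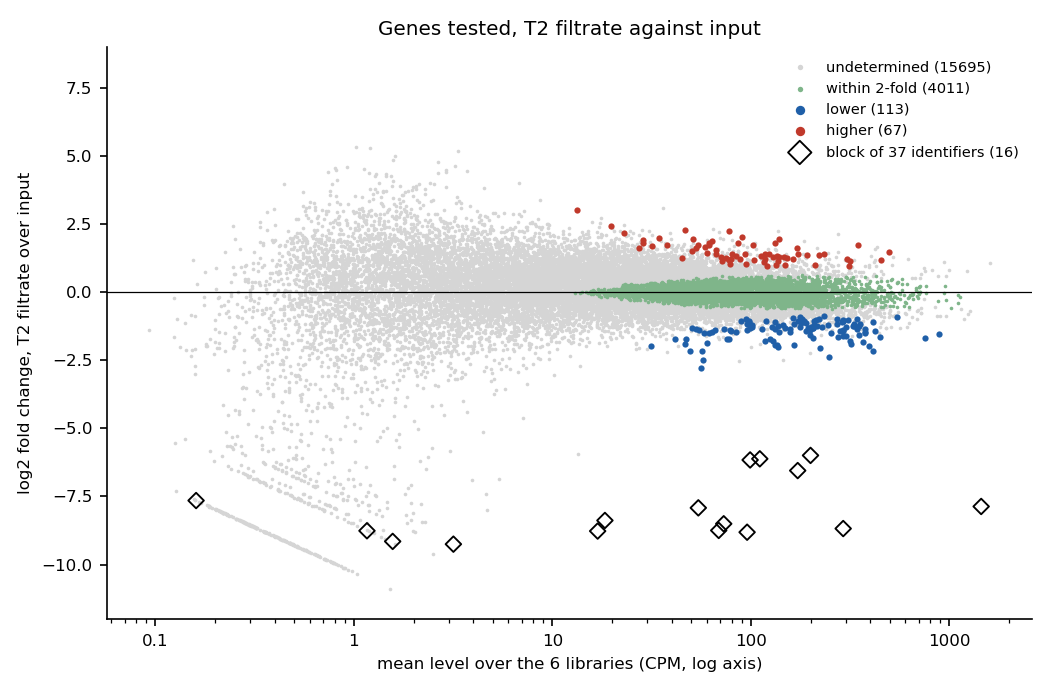
Log2 fold change of T2 filtrate over input (vertical axis) against the mean level over the 6 libraries in CPM (horizontal log axis), 1 point per tested gene. The 67 higher (red) and 113 lower genes (blue) lie at 13.2 CPM or more, the 4011 genes within 2-fold (green) fill the centre at high levels, and the 16 tested identifiers of the block (diamonds) lie between -9.25 and -5.99.

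How firmly a gene could be placed followed its level. The tested genes were split into 5 groups of equal size by their mean level. In the highest group (73.9 to 1600 CPM) 56.0% of the genes were within 2-fold of the input and 43 were higher and 103 lower at T2. In the group below it (30.4 to 73.9 CPM) 36.6% were within 2-fold, and 18 were higher and 20 lower. In the middle group (11.7 to 30.4 CPM) 8.17% were within 2-fold, and 6 were higher and 2 lower. Under 11.7 CPM no gene met either rule, and the median standard error of the log2 fold change was 2.02 in the lowest group against 0.219 in the highest. For rarer RNAs edgeR's test thus shows neither a difference nor its absence.

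**Figure D2:**
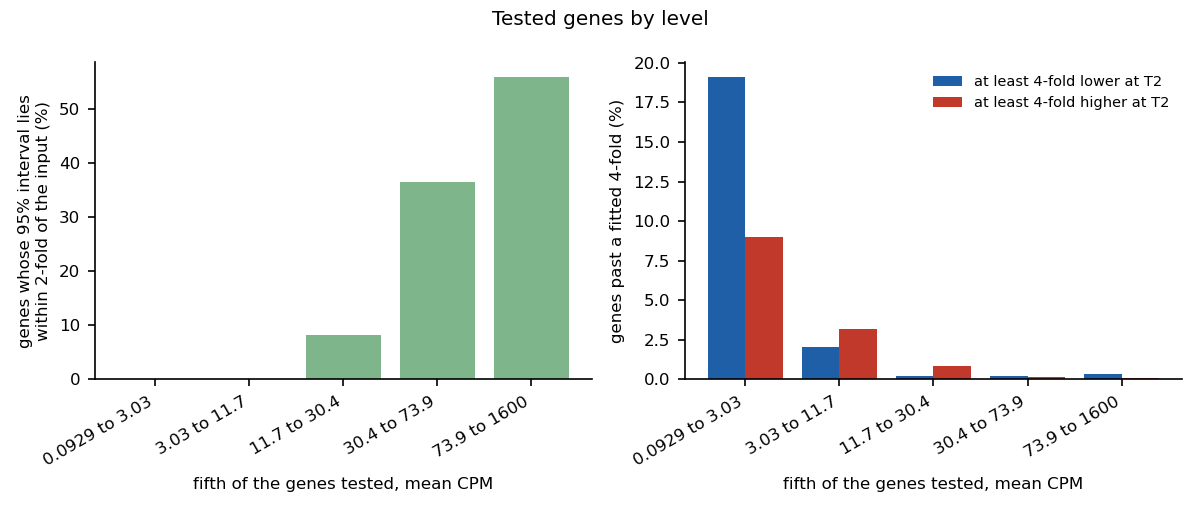
Genes tested, in 5 groups of equal size by mean level over the 6 libraries (horizontal axes, CPM). Left, the share whose 95% interval lies within 2-fold of the input, which is 0% in the 2 lowest groups and 56.0% in the highest. Right, the share with a fitted change of at least 4-fold. In the lowest group it is 19.1% lower (blue) and 8.99% higher at T2 (red). That group holds 391 genes with at most 3 reads in each T2 library, tested through the input alone. The filter fixed their direction, so the shares of this group are not a finding about direction.

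Gene symbols could be given to only a part of the table. The count tables list identifiers, and symbols were read from the first columns of the source sheet of the study's scatter plot of RNA, of which 1999 of 19752 entries (10.1%) were in hand, mostly on chromosomes 3L, 2S and 1L. Of the 1977 tested genes with an entry, 9 were higher, 14 were lower and 482 were within 2-fold, and the other 169 of the 192 genes have no entry here. Of the 23 with an entry, 21 have a gene name (8 higher and 13 lower) and the others only a placeholder. Positions are those of the RefSeq gene table of *X. laevis* genome v10.1. They cover whole genes with introns, since the counts are per gene.

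The named RNAs that were higher in the late filtrate were those of rchy1.L, atp5f1b.S, tmem39b.S, pmel.S, ppia.L, pkm.L, rpl4.L and soat2.S. The transcript of rchy1.L (chr1L:84854770-84882779), a RING ubiquitin ligase known for acting on p53, had 47.2, 53.0 and 45.6 CPM in T2 filtrates, against 14.1, 16.4 and 14.9 CPM in the input. It was 3.22-fold higher (95% interval 2.15 to 4.82, edgeR adjusted p = 0.0328). Its T2 libraries lay close together and far above every input library.

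The RNA of atp5f1b.S (chr2S:130370415-130375921), which encodes the catalytic beta subunit of the mitochondrial ATP synthase, had 259.8, 438.8 and 318.6 CPM at T2, against 121.6, 126.0 and 133.6 CPM in the input. It was 2.67-fold higher (1.90 to 3.75, edgeR adjusted p = 0.0326), with T2 replicate 2 the highest library. The RNA of pkm.L (chr3L:97685218-97706091), the glycolytic enzyme pyruvate kinase, was the most abundant of these genes. It had 518.9, 643.3 and 726.9 CPM at T2, against 286.5, 266.7 and 288.2 CPM in the input, and was 2.25-fold higher (1.68 to 2.99, edgeR adjusted p = 0.0345). The RNA of soat2.S (chr2S:139070052-139093350), which encodes an enzyme that esterifies cholesterol, had 170.4, 211.5 and 214.2 CPM at T2, against 90.0, 105.0 and 104.7 CPM in the input (1.99-fold higher, 1.51 to 2.63, edgeR adjusted p = 0.0484). In each of these 3 genes the lowest T2 library was above the highest input library, as the rule for naming genes required.

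The RNA of rpl4.L (chr3L:123723733-123729807), a protein of the large ribosomal subunit, had 125.7, 126.0 and 127.5 CPM at T2, against 64.2, 53.6 and 69.3 CPM in the input (2.03-fold higher, 1.52 to 2.7, edgeR adjusted p = 0.0495). Its 3 filtrates were nearly equal. The RNA of ppia.L (chr3L:134178785-134186103), cyclophilin A, a prolyl isomerase that assists protein folding, had 153.1, 230.8 and 247.2 CPM at T2, against 88.8, 96.9 and 69.2 CPM in the input (2.48-fold higher, 1.71 to 3.57, edgeR adjusted p = 0.0494). The remaining named genes that were higher were tmem39b.S, a membrane protein, at 2.65-fold (1.94 to 3.63, edgeR adjusted p = 0.0288), and pmel.S, which in pigment cells forms the fibrils of the melanosome, at 2.50-fold (1.81 to 3.46, edgeR adjusted p = 0.0343). Next by p-value, and not past the threshold, were anxa4.L, a phospholipid-binding annexin, with a log2 fold change of 1.13, and tnpo3.L, a nuclear import receptor for splicing factors, with 0.90 (edgeR adjusted p = 0.0508 for each). Among the genes with no symbol that passed the test, the largest rises were those of XBXL10_1g34190 and XBXL10_1g40076. XBXL10_1g34190 had 12.4, 27.9 and 30.5 CPM at T2 against 3.21, 2.43 and 3.04 CPM in the input. XBXL10_1g40076 had 21.2, 47.7 and 31.2 CPM at T2 against 4.98, 7.84 and 5.66 CPM in the input.

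The 13 named RNAs that were lower at T2 are given by the role of the protein they encode, with no test of any role. The most significant was espl1.S (chr2S:138738461-138777583), which encodes separase, the protease that cleaves cohesin to part sister chromatids at anaphase. It had 147.6, 142.7 and 144.9 CPM in T2 filtrates, against 403.3, 480.1 and 436.1 CPM in the input, and was 3.03-fold lower (95% interval 2.36 to 3.89, edgeR adjusted p = 0.0093). The 3 filtrates differed from one another by far less than from any input library.

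Genes of the spindle, the centriole and the replication checkpoint were also among them. The RNA of cep152.L (chr3L:109564356-109607689), a scaffold of centriole duplication, had 88.1, 87.2 and 87.8 CPM at T2, against 224.7, 227.2 and 227.0 CPM in the input (2.58-fold lower, 2.03 to 3.28, edgeR adjusted p = 0.0162). The RNA of hmmr.L (chr3L:30263661-30292009), a spindle-associated protein, had 214.0, 209.7 and 161.4 CPM at T2, against 396.2, 481.0 and 489.7 CPM in the input (2.34-fold lower, 1.74 to 3.14, edgeR adjusted p = 0.0326). The RNA of clspn.S (chr2S:73083752-73123148), Claspin, an adaptor of the replication checkpoint first described in *Xenopus* egg extract, had 235.0, 240.6 and 186.3 CPM at T2, against 493.7, 518.1 and 459.7 CPM in the input (2.22-fold lower, 1.69 to 2.93, edgeR adjusted p = 0.0323). In hmmr.L and clspn.S the lowest filtrate was replicate 3.

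Chromatin and transcription regulators were others. The RNA of kmt2d.S (chr2S:127904002-127997623), a histone H3 lysine methyltransferase of enhancers, had the largest fall among the named genes past the test, with 130.9, 254.1 and 96.5 CPM at T2, against 598.5, 707.4 and 568.3 CPM in the input (3.89-fold lower, 2.30 to 6.58, edgeR adjusted p = 0.0466). Its filtrates were spread, with replicate 2 the highest, but all lay below the input. The RNA of ikzf4.S (chr2S:129353144-129376921), a zinc finger factor of the Ikaros family, had 153.7, 130.8 and 189.0 CPM at T2, against 468.9, 407.2 and 397.3 CPM in the input (2.69-fold lower, 1.99 to 3.63, edgeR adjusted p = 0.0262). The RNA of nr3c1.L (chr3L:46037048-46174179), the glucocorticoid receptor, had 52.2, 33.4 and 44.7 CPM at T2, against 123.2, 112.9 and 103.4 CPM in the input (2.60-fold lower, 1.84 to 3.69, edgeR adjusted p = 0.0392). The smallest fall of this kind was that of arid3b.L, a DNA-binding protein of the ARID family (2.09-fold lower, 1.61 to 2.7, edgeR adjusted p = 0.0326).

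The rest had other roles. The RNA of cnot8.L (chr3L:28080532-28089442), a deadenylase of the CCR4-NOT complex, had 41.5, 40.2 and 42.6 CPM at T2, against 122.1, 95 and 100.4 CPM in the input (2.56-fold lower, 1.88 to 3.47, edgeR adjusted p = 0.0303). The RNA of ago4.S (chr2S:73129655-73175685), an Argonaute protein that binds small RNAs, had 145.8, 106.1 and 100.1 CPM at T2, against 295.6, 280.3 and 280.4 CPM in the input (2.43-fold lower, 1.80 to 3.30, edgeR adjusted p = 0.0323). The RNA of dock4.L, an exchange factor for the GTPase Rac, was 2.7-fold lower (2.01 to 3.62, edgeR adjusted p = 0.0244). That of plxnb2.L, a semaphorin receptor, was 2.49-fold lower (1.84 to 3.39, edgeR adjusted p = 0.0312), and that of zzef1.S was 1.94-fold lower (1.51 to 2.51, edgeR adjusted p = 0.0435). The T2 and input libraries of these genes did not overlap, which the rule for naming genes required. Of all tested genes 27.1% had libraries that did not overlap.

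**Figure D3:**
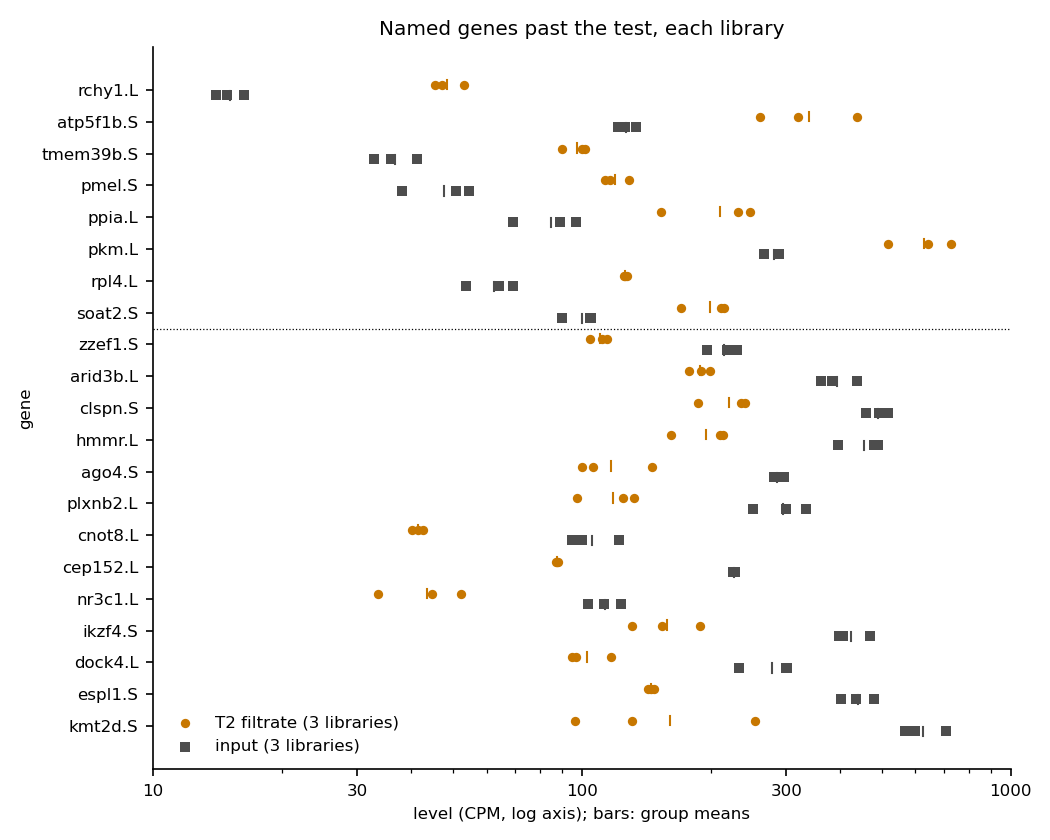
Level of the 21 named genes that passed the test (horizontal log axis, CPM) in each library, with T2 filtrates (circles) above input (squares) and short bars at the group means. In the 8 genes above the dotted line every T2 library lies above every input library, and in the 13 genes below it every T2 library lies below, from 1.94-fold for zzef1.S to 3.89-fold for kmt2d.S. This lack of overlap was required by the rule for naming genes.

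The largest differences that passed the test were in a block of 37 neighbouring identifiers, to which the files and the gene table give no gene name. It holds 24 identifiers with the prefix XBmRNA and 13 others that stand among them in the table, and it was singled out after its values were seen. Together these took 0.00289, 0.0024 and 0.00423% of the reads on genes in T2 filtrates, against 0.33, 0.301 and 0.925% in the input, a mean share 163-fold lower at T2. Input replicate 3 had the highest share. The T1 filtrates had 0.0101, 0.0044 and 0.135%.

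Of the 37 identifiers 16 could be tested, 12 passed the test, all of them lower, and in all 16 the libraries of the conditions did not overlap. Their log2 fold changes lay between -9.25 and -5.99 (median -8.44). The most abundant, XBXL10_1g44447, had 12.98, 9.31 and 14.8 CPM at T2, against 1813, 1642 and 5190 CPM in the input, and was 233-fold lower (95% interval 117 to 464, edgeR adjusted p = 0.00187). The next, XBXL10_1g44457, had 1.46, 1.28 and 1.54 CPM at T2, against 353.2, 284.1 and 1110 CPM in the input, and was 410-fold lower (192 to 875, edgeR adjusted p = 0.00187). With 1 library left out, between 8 and 12 of the block passed the test, and 0 passed with all 9 libraries in the fit or with limma voom. Without the block the count over all genes was 156, an alternative added after the data were seen.

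**Figure D4:**
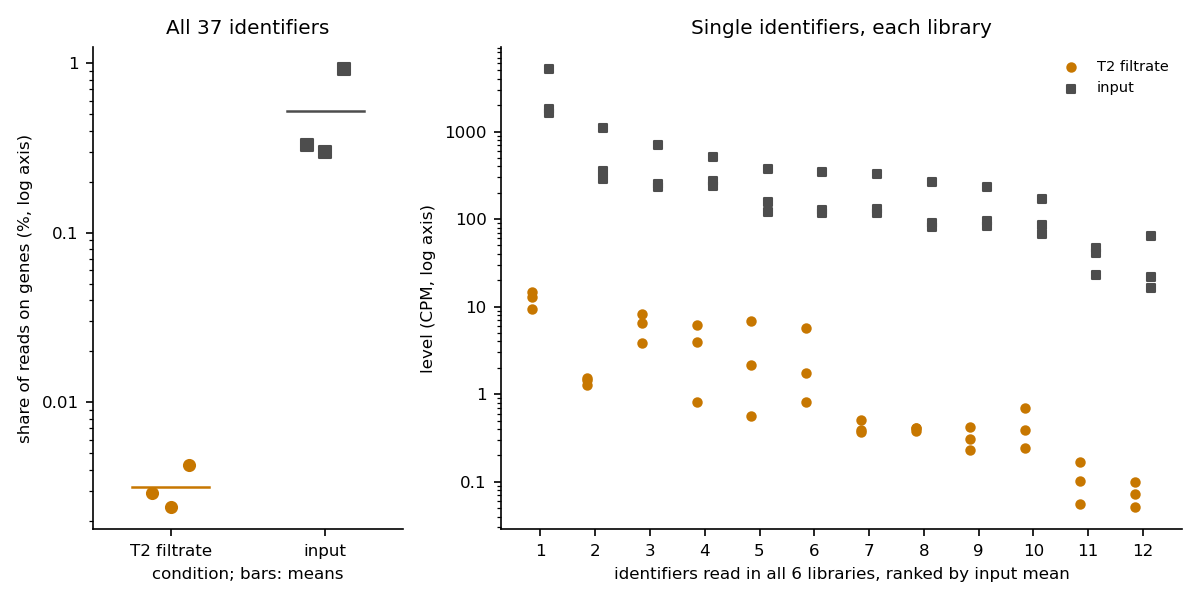
Block of 37 identifiers in T2 filtrates (circles) and input (squares). Left, its share of the reads on genes in each library (percent, log axis; bars are means), at most 0.00423% at T2 and at least 0.301% in the input; right, the level in CPM (log axis) of the 12 identifiers read in all 6 libraries, in order of their input mean, with T2 libraries below input libraries throughout.

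Other RNAs were nearly missing from the late filtrate but too rare to pass the test. At most 3 reads in each T2 library were seen for 391 tested genes outside the block, whose mean input level lay between 0.249 and 5.02 CPM (median 0.918). Such genes passed the filter through the input alone, so their direction was fixed by that filter, and their number is not a finding about direction. None had an adjusted p-value under 0.05 by edgeR (smallest 0.0653), and 389 had an unadjusted p-value under 0.05. DESeq2's Wald test called 187 of them and limma voom 0. In 375 of them the mean input level was more than 10 times the 0.0385 CPM that 3 reads make in a T2 library. No tested gene had at most 3 reads in each input library.

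The nearly missing RNAs named here are examples picked from the 32 with an entry, and no role was tested. In the gene lists described below, 1 of 42 transcription factors and 2 of 49 receptors, adhesion molecules and ligands were nearly missing. So were 2 of 32 solute carriers. Over all tested genes it was 395 of 19902, with the block. The RNA of erbb3.S, a receptor of the epidermal growth factor receptor family, had 0, 0 and 2 reads at T2, against 240, 115 and 550 reads in the input. That of plxnc1.L, a semaphorin receptor, had 0, 0 and 1 read at T2, against 29, 287 and 83 reads in the input. No read was seen in any T2 filtrate for slc4a4.L, a sodium bicarbonate cotransporter, against 92, 74 and 51 reads in the input, or for slco3a1.L, an organic anion transporter, against 56, 29 and 159 reads. Set against 3 reads in each T2 library, the mean input level was 26.8 times as high for slc4a4.L and 26.7 times for slco3a1.L. These ratios leave out the spread of the input, which was 0.877, 0.422 and 1.79 CPM for slco3a1.L. Such genes passed the filter through the input alone, so the ratios are not a finding about direction. No T2 read was seen either for nfkb1.L, a subunit of the transcription factor NF-kB, nr1h4.L, a bile acid receptor, and vwf.L, von Willebrand factor. Their mean input levels were 15.4, 16.6 and 21.8 times that of 3 reads, in this order and by the same ratio. The edgeR adjusted p-values of all these nearly missing RNAs lay above 0.05, at 0.12 for slc4a4.L and 0.0963 for erbb3.S.

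Of the most abundant RNAs of the extract many were close to its level in the late filtrate, 56.0% of the highest group by the interval rule. The RNA of nap1l1.L, a histone chaperone, had 681.6, 532.9 and 907.8 CPM at T2, against 737.3, 677.1 and 718.7 CPM in the input, a fold of 0.995 (95% interval 0.704 to 1.41). That of cpeb1.L, which binds the cytoplasmic polyadenylation element of stored maternal messages, had 625.8, 550.8 and 477.7 CPM at T2, against 575.7, 653.4 and 518.8 CPM in the input, a fold of 0.946 (0.708 to 1.27). The libraries of the conditions overlapped for both. The RNA of rbbp4.S, a histone-binding protein of chromatin complexes, had 588.8, 591.1 and 954.2 CPM at T2, against 697.8, 650.9 and 571.5 CPM in the input (fold 1.11, 0.771 to 1.6), with T2 replicate 3 above the others.

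Some of these abundant RNAs were within 2-fold and still did not overlap between the conditions. The RNA of ccna1.S, the cyclin A of the early embryo, had 554.3, 564.5 and 439.3 CPM at T2, against 630.4, 854.7 and 585.6 CPM in the input (fold 0.753, 0.541 to 1.05). The RNA of eif4h.S, a cofactor of the translation helicase, lay on the other side, with 575.4, 615.9 and 702.0 CPM at T2, against 526.9, 551.8 and 475.8 CPM in the input (fold 1.22, 0.932 to 1.59). The RNAs of pnrc2.S, med13.S, npm1.L and akirin1.S, also among the 10 most abundant in this class, had folds of 0.708, 0.685, 0.837 and 0.764, and of these only npm1.L overlapped between the conditions. Being within 2-fold is thus a bound on the change and not equality.

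RNAs that earlier results of these data gave as nearly absent from the T1 filtrate were found again at T2. The T1 values below are scaled by library total alone, and the comparisons of T1 and of T2 share the input. The RNA of elf2.L, an ETS transcription factor, had 4.83, 10.2 and 4.11 CPM at T2, against 12.2, 13.3 and 6.91 CPM in the input, with 0.0278, 0 and 0 CPM at T1. The RNA of fuca1.S, a lysosomal fucosidase, had 10.2, 15.03 and 6.24 CPM at T2, against 13.6, 14.5 and 7.56 CPM in the input, with 0.0278, 0.0268 and 0.0425 CPM at T1. The T2 and input libraries overlapped for both genes.

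For others of this kind the same was seen with wide intervals. The RNA of sema6d.L, a transmembrane semaphorin, had 32.2, 38.0 and 6.30 CPM at T2, against 21.5, 26.3 and 14.0 CPM in the input (fold 1.24, 95% interval 0.473 to 3.24). The RNA of tmem131.S, a transmembrane protein, had 28.7, 22.4 and 18.5 CPM at T2, against 36.6, 31.6 and 21.0 CPM in the input (fold 0.780, 0.455 to 1.34). The folds of slc26a5.L, kctd14.S and lrriq1.L were 0.542, 0.616 and 0.534, and of these only slc26a5.L overlapped between the conditions. None of the 7 genes was called different at T2 and none could be placed within 2-fold, so whether they were back at the level of the extract was not determined.

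RNAs that were most enriched at T1 were above the input at T2 in their fitted values, and none passed the test. They were picked by their T1 values over these same input libraries. Their place above the input at T2 is therefore not independent of that choice. The RNA of rps3.S, a protein of the small ribosomal subunit, had 22.2, 40.4 and 60.6 CPM at T2, against 8.19, 13.01 and 15.02 CPM in the input (3.4-fold, 95% interval 1.72 to 6.71, edgeR adjusted p = 0.0883). The RNA of rps14.L had 12.6, 55.0 and 45.8 CPM at T2, against 6.94, 6.97 and 13.4 CPM in the input (4.15-fold, 1.72 to 10, edgeR adjusted p = 0.109), and its lowest filtrate lay within the range of the input. The RNA of c15orf61.L had 3.49, 3.86 and 6.35 CPM at T2, against 0.642, 0.495 and 0.18 CPM in the input (10.4-fold, 1.71 to 63.5, edgeR adjusted p = 0.188). The folds of tspo.L, a cholesterol-binding protein of the outer mitochondrial membrane, and of polr1h.L, a subunit of RNA polymerase I, were 2.81 (0.683 to 11.6) and 3.14 (0.98 to 10).

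Gene lists were described by their counts and medians, beside 0.337% higher, 0.628% lower and 20.2% within 2-fold over all tested genes. Over all tested genes 10922 of 19902 had values above 0 and 8980 below. At an unadjusted edgeR p-value under 0.05, 9.18% of all tested genes were higher and 9.25% lower. The messenger RNAs of cytosolic ribosomal proteins had a median log2 fold change of 1.47, and 13 of 13 members had values above 0. Of these 1 (rpl4.L) passed the test, 8 had an unadjusted p-value under 0.05 and none was within 2-fold. The RNA of rps16.L had 98.9, 111.8 and 225.5 CPM at T2, against 40.2, 34.1 and 63.7 CPM in the input (log2 fold change 1.66, SE 0.36, edgeR adjusted p = 0.0721). The medians in T2 replicates 1, 2 and 3, each against the mean input, were 0.58, 1.26 and 1.97, so the size differed between filtrates. These ratios had 1 CPM added to both levels, so they are not on the scale of the fitted median of 1.47.

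The RNAs of nuclear-encoded electron transport and ATP synthase subunits had a median of 1.35, with 8 of 10 members above 0, 1 (atp5f1b.S) past the test and 7 with an unadjusted p under 0.05. The RNA of ndufc2.S, a subunit of complex I, had 15.1, 37.5 and 39.3 CPM at T2, against 2.88, 3.46 and 7.68 CPM in the input (log2 fold change 2.71, SE 0.54, edgeR adjusted p = 0.0657). The 3 subunits of the vacuolar ATPase had a median of 0.85, with none past the test and 1 within 2-fold. The RNAs of mitochondrial ribosomal proteins had a median of 0.21 with 7 of 10 above 0, 2 within 2-fold and none past the test. Translation factors had a median of 0.42 with 5 of 5 above 0 and 4 within 2-fold, among them eef1a1o.S, an elongation factor 1 alpha of the oocyte, with 303.4, 296.0 and 340.5 CPM at T2 against 217.1, 216.6 and 254.1 CPM in the input.

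Lists of RNA regulators were centred near the input. Heterogeneous nuclear ribonucleoproteins had a median of -0.01 with 5 of 7 within 2-fold, and the spliceosome list had a median of 0.01 with 6 of 15 within 2-fold. Neither had a member past the test. The list of mRNA storage and decay had a median of -0.12, with 2 of 27 members lower (ago4.S and cnot8.L), none higher and 9 within 2-fold. Within it caprin2.L, an RNA-binding protein, had 241.1, 214.3 and 174.7 CPM at T2, against 112.0, 116.9 and 110.4 CPM in the input (log2 fold change 0.89, edgeR adjusted p = 0.059). The RNA of g3bp1.L, the scaffold of stress granules, was within 2-fold with a log2 fold change of -0.27.

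The cell cycle and chromosome list had a median of -0.20, with 2 of 33 members lower (espl1.S and hmmr.L), none higher and 15 within 2-fold, including those of the cyclins ccna2.L and ccnb2.L. Just outside the threshold, cenpe.L, a kinetochore motor, had 87.6, 95.3 and 27.5 CPM at T2, against 308.0, 346.4 and 324.0 CPM in the input (log2 fold change -2.22, SE 0.40, edgeR adjusted p = 0.0511). On the other side pcna.L, the sliding clamp of DNA replication, had 484.8, 470.6 and 757.5 CPM at T2, against 268.9, 280.2 and 248.9 CPM in the input (log2 fold change 1.10, SE 0.22, edgeR adjusted p = 0.059). Members of this list lay on both sides of the input, 20 of 33 below 0 and 13 above. At an unadjusted edgeR p-value under 0.05, 7 were lower and 1 was higher. Over all tested genes 9.25% were lower and 9.18% higher by this measure.

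The lists of transcription factors and of receptors, adhesion molecules and ligands had medians below the input. Of 42 tested transcription factors 33 had values below 0, with a median of -0.45, 2 lower (ikzf4.S and nr3c1.L), none higher and 7 within 2-fold. Of 49 tested receptors, adhesion molecules and ligands 34 had values below 0, with a median of -0.43. Over all tested genes 8980 of 19902 had values below 0. Of the 49, 1 was lower (plxnb2.L), none was higher and 4 were within 2-fold. At an unadjusted edgeR p-value under 0.05, 11 of the 49 were lower, among them the 2 nearly missing at T2, and 0 were higher. Of the 42 transcription factors 5 were lower and 1 was higher by this measure, against 9.25% lower and 9.18% higher over all tested genes. The RNA of igdcc4.L, a cell surface protein of the immunoglobulin family, had 13.1, 24.5 and 14.9 CPM at T2, against 49.7, 56.8 and 64.0 CPM in the input (log2 fold change -1.70, SE 0.31, edgeR adjusted p = 0.0511). The RNA of igf1r.L, a receptor of insulin-like growth factors, had 50.6, 68.3 and 28.8 CPM at T2, against 104.1, 97.7 and 99.9 CPM in the input (log2 fold change -1.03, edgeR adjusted p = 0.12). Members nearly missing at T2 were tested only because of their reads in the input, which fixed their direction. Without the 1 such transcription factor and the 2 such receptors the medians were -0.45 and -0.40, with 32 of 41 and 32 of 47 below 0, an alternative added after the data were seen. Both medians stayed below 0 under every alternative scaling tried.

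The label of the samples was checked against markers of the egg and of other cells. The egg and oocyte markers were read in all 3 libraries of each condition but for asz1.L at T2, with cpeb1.L, gdf9.L and ccnb2.L the most abundant, and the list had a median log2 fold change of -0.06 that turned to 0.01 with library size only. None of its 13 members passed the test and 4 were within 2-fold. Of the 13, 6 had values above 0 and 7 below. The RNA of zp4.L, an egg coat glycoprotein, had 108.0, 122.9 and 171.7 CPM at T2, against 58.1, 60.3 and 74.3 CPM in the input (log2 fold change 1.06, edgeR adjusted p = 0.068). The RNA of npm2.L, the egg's histone chaperone nucleoplasmin, had 76.5, 90.7 and 126.3 CPM at T2, against 46.3, 32.6 and 58.7 CPM in the input (log2 fold change 1.09, edgeR adjusted p = 0.0977). On the other side zar1l.S had 76.1, 88.4 and 45.5 CPM at T2, against 111.4, 107.1 and 96.9 CPM in the input (log2 fold change -0.59, edgeR adjusted p = 0.278). The 8 markers of leukocytes, endothelium and stroma had medians of 2.14 CPM at T2 and 0.772 CPM in the input, none passed the test, and single libraries decided their values, as for stab2.L with 0.0207, 0.0333 and 10.9 CPM at T2 against 0.423, 0 and 0.382 CPM in the input.

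**Figure D5:**
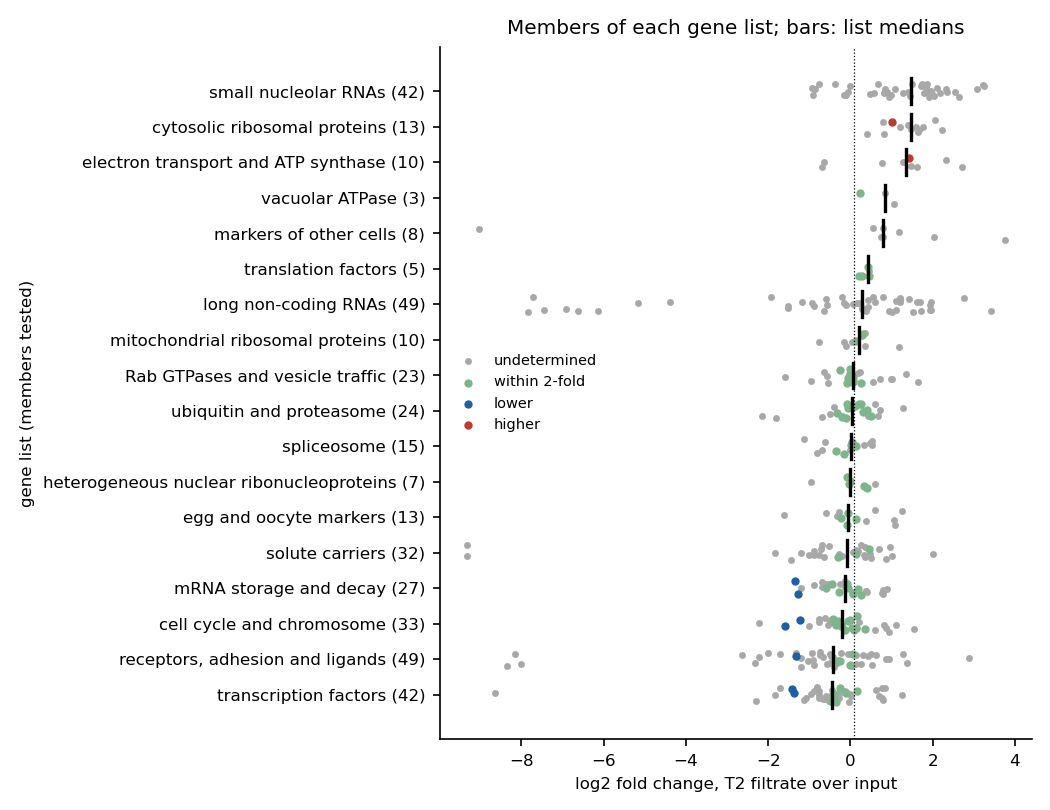
Log2 fold change of T2 filtrate over input (horizontal axis) for the tested members of 18 gene lists, 1 point per gene, with a bar at each list's median and a dotted line at the median of all tested genes (0.09). Medians run from -0.45 for transcription factors to 1.47 for small nucleolar RNAs and for cytosolic ribosomal proteins; members past the test are coloured red (higher) or blue (lower), and members within 2-fold green.

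The called genes also differed in the length of the locus, a property the test did not use. The median genomic span, which includes introns and is not the length of the transcript, was 15.1 kb for the 9 genes with an entry that were higher at T2 (5.51 to 28 kb) and 43 kb for the 14 that were lower at T2 (8.91 to 165 kb). It was 27.3 kb for the 482 genes within 2-fold and 24.8 kb for all 1866 genes with a span. Messenger RNAs of at least 10 CPM were split into 3 groups of near equal size by span. The median log2 fold change was 0.16 in the group of shortest spans (up to 16.2 kb), 0.06 in the middle group and -0.19 in the group of longest spans (from 36.9 kb). In the same order 60.1, 52.9 and 37.6% of the genes had values above 0, and 5, 4 and 0 were higher and 1, 3 and 10 lower at the adjusted threshold. The median input level also rose in this order, at 36, 51.4 and 54 CPM, and span was not tested apart from level. These are descriptions with no test, and the length of the transcripts was not analysed here.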

How the data were processed

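RNA from 3 T2 filtrates and 3 input extracts was sequenced after depletion of ribosomal RNA with a stranded kit. Per the study's methods, the authors trimmed the reads with Trim Galore, aligned them to *X. laevis* genome v10.1 with STAR and deposited its read counts per gene. The strand setting of the deposited counts is not given in the sources used here, so antisense and overlapping genes may share reads, as may near-identical L and S copies. The 4 summary rows that name no gene held between 36.2 and 45.7% of the reads of these libraries (unmapped, multimapping, outside genes or ambiguous) and were left out. The authors also deposited normalized values (a signal, counts divided by size factors). Whole reads could be recovered from 100% of them within 0.01 of a read, 4527 of their 25617 genes differed from the raw table, and they served as an alternative only. The authors' sheet holds fold changes as well, which were not used.

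Counts were filtered with filterByExpr (minimum count 10, total 15), scaled by TMM and tested with edgeR 4.0.16 (quasi-likelihood, R 4.3.3), with Benjamini-Hochberg adjustment over 19902 genes and a threshold of 0.05. The test was tested on simulated data, where it missed most of the changes put in. DESeq2 1.42.0 and limma 3.58.1 gave alternatives. Members, lists, the rule for named genes and the choice of libraries were made with earlier results of these data known. Named were genes with a symbol past the test and without overlap (at most 15 per direction, filled up to 10 by p-value), the 10 most abundant within 2-fold (1 of which is not reported here), list members past the test, and cell markers; genes just outside the threshold, nearly missing genes and single list members were chosen after their values were seen. A planned comparison of protein lengths was replaced by genomic spans, since no protein table was used here. The study's methods give 3 independent samples in all for 9 experiments. By these numbers the T2 and input libraries came from the same 3 samples and shared extracts. Whether same-numbered samples do is not stated in the sources used here, so replicate numbers were not used as pairs. The p-values treat the libraries as unpaired, so they leave this sharing out, and measure the spread between these samples. With the replicate number as a block 153 genes passed edgeR's test, 116 of them among the 192.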

Additional observations from a re-analysis of the deposited data

How the results depend on the processing

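Counts of calls, list medians and fold changes of named genes were recomputed under 16 alternatives, of which 6 left out 1 library. Genes different, higher and lower at T2 numbered 192, 67 and 125 as reported, 474, 232 and 242 when only genes without a read were filtered out, 1830, 803 and 1027 with DESeq2's Wald test, 417, 205 and 212 with limma voom and a quality weight per condition, and 0, 0 and 0 with all 9 libraries (1570 at an unadjusted p-value under 0.05). With library size only 123 were higher. With 1 library left out they numbered 11 to 203, 0 to 59 and 11 to 148, lowest without an input library. Within 2-fold were 1240 genes with all 9 libraries and 2672 to 4756 with 1 library left out. The median log2 fold change of all genes was -0.035 without the filter, -0.13 with limma voom, -0.10 with the replicate block and between -0.014 and 0.104 with 1 library left out. The replicate block gave 153 genes, 50 higher and 103 lower, 116 of them among the 192, with 4088 within 2-fold. Deviations of same-numbered samples correlated at 0.22, 0.39 and -0.04, and those of differently numbered samples at between -0.42 and 0.22. T2 replicates 1 and 2 correlated highest with the input of their own number, and T2 replicate 3 with input replicate 1. Whether the numbers are a pairing is thus not settled by these values, and the main fit did not use one. Under all 16 alternatives no called named gene changed sign. Since their libraries did not overlap between the conditions, the 6 alternatives that left out 1 library could not change it. The 21 called genes with a symbol passed the test in between 6 and 12 alternatives, with edgeR, DESeq2 or limma adjusted p-values between 2.88e-19 and 0.312 for espl1.S. Of the 192 genes 178 passed with median-of-ratios size factors, 181 with recovered reads and 192 with DESeq2. The 192 genes had means of at least 13.2 CPM.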

Other observations

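Further gene groups of the late filtrate were centred on the input. The ubiquitin and proteasome list had a median log2 fold change of 0.03 over 24 members, 12 of them within 2-fold and none past the test. Its members included usp15.L, a deubiquitinase with 6.44, 5.79 and 12.3 CPM at T2 against 32.2, 24.7 and 29.5 CPM in the input (log2 fold change -1.82, edgeR adjusted p = 0.0799), and psmb2.S, a proteasome subunit with 41.0, 74.1 and 52.8 CPM at T2 against 20.8, 24.2 and 24.2 CPM in the input (log2 fold change 1.28, edgeR adjusted p = 0.073). The Rab and vesicle traffic list had a median of 0.06 with 9 of 23 within 2-fold and none past the test. The 32 solute carriers had a median of -0.07 with 3 within 2-fold and none past the test, and the median was 0.09 without the 2 members nearly missing at T2. The most abundant that lay apart was slc25a3.L, the mitochondrial phosphate carrier, with 570.4, 768.1 and 727.2 CPM at T2 against 308.9, 299.9 and 418.3 CPM in the input (log2 fold change 1.01, edgeR adjusted p = 0.0617).

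Noncoding RNAs were rare and variable. The 42 small nucleolar RNAs had a median log2 fold change of 1.47, with 33 above 0, against 10922 of 19902 over all tested genes. At an unadjusted edgeR p-value under 0.05, 3 were higher, against 9.18% of all tested genes. None of the 42 was past the adjusted threshold or within 2-fold. By the ratio to the mean input with 1 CPM added to both levels, their medians were 0.19, -0.28 and 1.71 in T2 replicates 1, 2 and 3. At such low levels these are not on the scale of the fitted median of 1.47. The fitted median was 0.02 without T2 replicate 3. The 49 long noncoding RNAs had a median of 0.28 (0.43 without the 6 nearly missing at T2). The 6 that were lower at an unadjusted edgeR p-value under 0.05 were these same nearly missing members, whose direction the filter fixed. None of the 49 passed the adjusted threshold by edgeR.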
